A study of Mus musculus with 4 samples.

Results

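Carriers of sugars, amino acids, bile acids, monocarboxylates and organic ions were followed in liver and spleen of mice on 2 diets. The genes were those whose probe name in the scanner files starts with Slc2a, Slc7a, Slc10a, Slc16a, Slc22a, Slc38a or Slco, each read from its brightest probe. This gave 83 genes with 129 probes among 27672 genes on the array, and 52 of the 83 genes had 1 probe. By family there were 11 Slc2a, 16 Slc7a, 5 Slc10a, 14 Slc16a, 17 Slc22a, 5 Slc38a and 15 Slco genes. Slc7a6os begins like a carrier and was kept as the rule takes it, although its protein is not a carrier.

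The mice were male C57BL/6J, 13 weeks old, and ate for 4 weeks either a purified diet poor in nucleoprotein (low NP, 0.03% nucleic acids) or that diet with 1.2% nucleoprotein added (NP, 0.5% nucleic acids). No transgene or other agent is named in the labels, which also mention a standard chow without saying when it was fed. Total RNA was pooled per diet and tissue, from a number of mice that the labels leave out. Each tissue lies on 2 Agilent arrays that measure both diets at once, with the NP pool in the red dye Cy5 on array 1 and in the green dye Cy3 on array 2. Both arrays of a tissue were taken to hold the same pools with the dyes swapped. Each diet and tissue thus has 1 replicate, and differences are described without a test. Pooled samples are numbered 1 and 2 in step with the dye, so separate pools for each array cannot be told apart from a swap.

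Ratios are log2 of NP over low NP, which is opposite to the deposited value table of the series, where low NP stands over NP. The value after ± is the distance of either array from their mean and covers technical error. Measured means that on each array of a tissue at least 1 channel of the probe stood well above background. A call, higher or lower, needs a difference of 1.5-fold or more on each array with the same sign. Levels are log2 signals of 1 channel after normalization, and are compared only for the same probe.

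Solute carriers are membrane proteins that move small molecules down a gradient or together with ions. Hepatocytes take up bile acids, drugs, sugars and amino acids from blood through carriers that few other cells make, such as the bile acid carrier Ntcp (Slc10a1) and the organic anion carrier Oatp1b2 (Slco1b2). Lymphocytes, macrophages and red cell precursors, which fill the spleen, feed on glucose and glutamine through other members of the same families.

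The pools were first set against markers of their tissues. All 11 hepatocyte markers on the array were called lower in NP spleen than in low-NP spleen, with a median log2 ratio of -5.29. Their summed log2 level was 15.92 and 14.12 in NP spleen and 20.82 and 20.30 in low-NP spleen. In both liver pools it was between 20.14 and 20.79, and 1 of the markers had a saturated spot in every pool but NP spleen. The brightest markers rule this sum. On the mean of the arrays Alb, Fabp1 and Ahsg were higher in low-NP spleen than in both liver pools. Every other marker was lower there, such as Tat at 13.68 against 16.25 in NP liver and 16.23 in low-NP liver. In liver, 6 of 8 B cell markers and 6 of 8 T cell markers were called lower in the NP pool, with medians of -2.10 and -2.19. The summed B cell level was 12.05 and 11.26 in NP liver, 15.11 and 15.38 in low-NP liver and between 17.48 and 17.69 in the spleen pools. The summed T cell level was 11.95 and 11.25 in NP liver and 13.60 and 14.18 in low-NP liver, against 16.08 to 16.23 in the spleen pools. Each low-NP pool thus carried more transcript of the other tissue's defining genes than the NP pool of its own tissue, and the part of this in the diet ratios was not tested. All 10 exocrine pancreas markers were also lower with NP in both tissues, with medians of -1.03 in liver and -2.13 in spleen. Of 8 erythroid markers 3 were higher in NP spleen, and of 7 macrophage markers 3 were lower in liver and 2 in spleen. The 3 were Csf1r, Marco and Spic, whose NP levels were higher in spleen than in liver. The 2 were Vsig4 and Clec4f, whose NP levels were higher in liver than in spleen. None of the endothelial, adipocyte or kidney tubule markers was called in either tissue. In each tissue all 5 endothelial, 3 of 4 adipocyte and only 1 of 5 kidney tubule markers were measured. Of all measured genes 3.65% were lower in liver and 6.34% in spleen, and 0.0434% were higher in spleen. In such bulk samples fewer cells of a type and less RNA per cell cannot be told apart. Spleen array 1 stood apart in the share of probes flagged well above background, at 94.7% and 93.1% against 58.7% to 67.5% on the other arrays. The requirement of a signal well above background thus removed few probes on that array.

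Of 62 carrier genes measured in spleen 15 (24.2%) were lower in the NP pool, against 6.34% of all 18430 measured genes. The promoters of 4 of the 15 are shown because these genes differed together and had their highest levels in liver. The sequences are RefSeq's, build GRCm38.p6, and run 5′ to 3′ over the 250 bases before the transcript start. They lie at chr6:141629268-141629517, plus strand for Slco1b2, chr6:141946963-141947212, minus strand for Slco1a1, chr3:28697653-28697902, plus strand for Slc2a2 and chr12:80968080-80968329, minus strand for Slc10a1. Slc10a1 has 2 starts in that table, and the one shown is the start with a match to the C/EBP letters. Capitals mark matches, on either strand, to the TATA box letters TATAAA in Slco1b2 and Slco1a1 and to the C/EBP letters TTGCNNAA in Slc10a1. Slc2a2 held none of the letters searched, and no 2 kinds of match overlap in these sequences.
Slco1b2: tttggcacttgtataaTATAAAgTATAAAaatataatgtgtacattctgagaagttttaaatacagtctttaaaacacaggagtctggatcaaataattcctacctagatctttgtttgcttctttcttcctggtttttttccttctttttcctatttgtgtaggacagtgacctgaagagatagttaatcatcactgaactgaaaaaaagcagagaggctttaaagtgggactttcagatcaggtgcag
Slco1a1: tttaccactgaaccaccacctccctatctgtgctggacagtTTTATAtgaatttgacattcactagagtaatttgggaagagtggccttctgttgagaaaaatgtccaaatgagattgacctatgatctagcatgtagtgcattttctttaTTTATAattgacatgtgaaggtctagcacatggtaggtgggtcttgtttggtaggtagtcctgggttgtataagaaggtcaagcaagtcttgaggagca
Slc2a2: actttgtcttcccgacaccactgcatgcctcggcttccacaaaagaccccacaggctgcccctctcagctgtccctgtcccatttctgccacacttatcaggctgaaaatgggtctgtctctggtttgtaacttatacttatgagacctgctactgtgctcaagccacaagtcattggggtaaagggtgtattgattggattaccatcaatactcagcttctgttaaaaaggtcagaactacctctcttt
Slc10a1: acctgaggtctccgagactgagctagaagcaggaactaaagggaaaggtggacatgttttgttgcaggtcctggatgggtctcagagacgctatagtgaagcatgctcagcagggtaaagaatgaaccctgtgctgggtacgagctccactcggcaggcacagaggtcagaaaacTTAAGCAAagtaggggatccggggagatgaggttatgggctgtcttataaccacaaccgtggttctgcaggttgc

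Across 32851 RefSeq promoters of this length the TATA letters stood in 12.4%, the C/EBP letters in 9.56% and the HNF4 letters CAAAGTCCA in 0.384%. The table held 62 of the 83 carrier genes with 77 promoters, of which 10 (13.0%) had the TATA letters, 6 (7.79%) the C/EBP letters and none the HNF4 letters. For the genes lower in NP spleen it held 10 of 15 genes with 13 promoters, and of these 13 the TATA letters stood in 4 (30.8%) and the C/EBP letters in 1. Slc16a7, Slc22a7 and Slc38a3 were among those with no entry. A match describes letters in this window and says nothing of binding.

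The first comparison asked which carriers differed between the NP and low-NP pools of spleen. Lower in NP spleen were 15 carriers and higher none, while 0.0434% of all measured genes were higher. They included Slco1b2, Slco1a1, Slc10a1, Slc10a2, Slc2a2, Slc2a5, Slc22a7, Slc22a18, Slc38a3, Slc38a4, Slc16a7, Slc16a11 and Slc16a12. Their ratios ran from -7.08 ± 0.60 for Slco1b2 to -1.07 ± 0.09 for Slc16a7. The other 47 had means between -1.01 and 0.37, and the median over all measured carriers was -0.01, against -0.02 over all genes. On both arrays 28 carriers lay below 0 and 19 above it, and 15 changed sign between the arrays. Of all measured spleen genes 36.3% lay below 0 on both arrays and 23.3% above it. No Slc7a gene was called, while every other family held between 2 and 4 of the called genes. Just outside the call stood Slc7a2, at -0.53 and -1.49 on arrays 1 and 2, and Slco1a4, at -0.46 and -1.06. Just inside it stood Slc10a2, at -0.71 and -2.19, and Slc16a12, at -0.97 and -1.95.

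**Figure D1:**
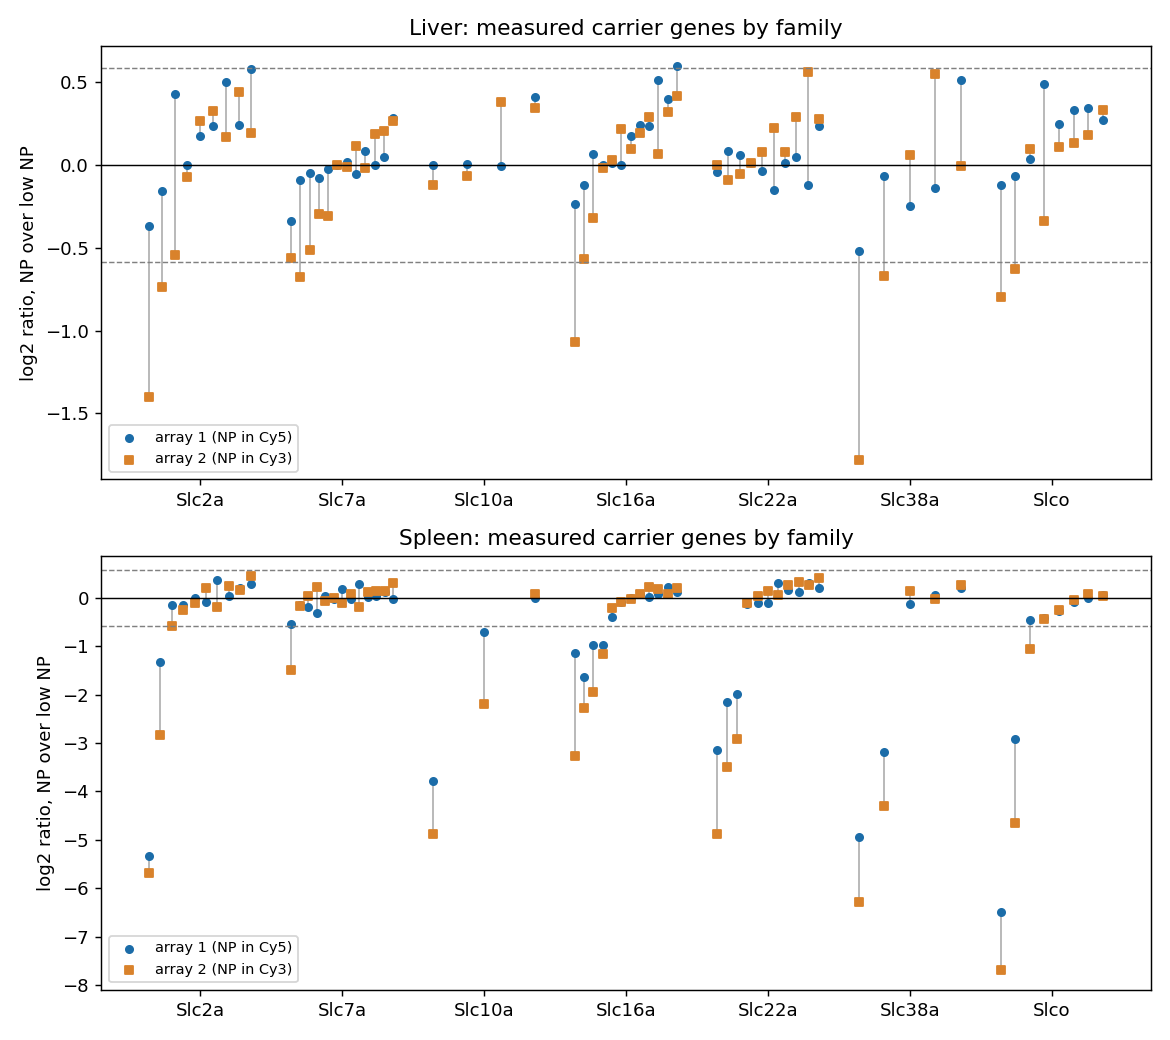
Log2 ratio of NP over low NP for the measured carrier genes of each family in liver (60 genes, top) and spleen (62 genes, bottom), with 1 point per array, a line joining the arrays of a gene, and dashed lines at 1.5-fold; genes are ordered by their mean within a family and the panels differ in scale. In spleen 15 genes lie below the lower line on both arrays, down to -7.69, and in liver none does.

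In liver the same comparison gave no call among 60 measured carriers. Of all 17006 measured liver genes 3.65% were lower and 0.0706% higher, and 41 genes, like 25 in spleen, followed the dye, with 1.5-fold or more on each array but opposite signs. The carriers' median was 0.04, against 0.00 over all genes, with 26 carriers above 0 on both arrays, 16 below and 18 of changing sign. Of all measured liver genes 29.2% lay above 0 on both arrays and 30.7% below it. The lowest mean was that of Slc38a1, at -1.15 ± 0.63, and the highest that of Slc16a11, at 0.51 ± 0.09. The absence of calls rests on array 1: on array 2 alone 8 carriers were at least 1.5-fold lower (Slc16a3, Slc2a3, Slc2a6, Slc38a1, Slc38a5, Slc7a11, Slco3a1 and Slco4a1) and on array 1 alone none was. Array 2 alone had 13.3% of carriers and 11.2% of all genes lower, and array 1 alone 0% and 4.12%. Without background correction 5 carriers (8.33%) were called lower, against 7.8% of all genes. With the scanner's processed signals it was 7 carriers (11.7%), against 10.6% of all genes.

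The bile acid and organic anion carriers held the largest ratio of the set. Slco1b2, which takes up bile acids, bilirubin and statins in hepatocytes, had log2 levels on arrays 1 and 2 of 16.86 and 16.52 in NP liver, 16.37 and 16.86 in low-NP liver, 8.45 and 7.39 in NP spleen and 14.93 and 15.08 in low-NP spleen. Both arrays of NP spleen lay far below the other 6 values, a ratio of -6.48 and -7.69, or 136-fold lower, read at chr6:141738135-141738194 (mm7). The NP spleen signal of Slco1b2 was dim, so the size of this fold is uncertain. Slc10a1, the sodium-coupled bile acid carrier of the hepatocyte's blood side, stood at 14.47 and 14.56 in NP liver, 14.48 and 14.18 in low-NP liver, 8.34 and 7.61 in NP spleen and 12.11 and 12.48 in low-NP spleen. It was 20.03-fold lower in NP spleen (-4.32 ± 0.55; probe at chr12:78923269-78923328, mm7), with no overlap between the diets. Its NP spleen signal was dim too, so this size is also uncertain. Slco1a1, another sinusoidal anion carrier, had levels of 7.97 and 6.92 in NP spleen against 10.90 and 11.58 in low-NP spleen, a ratio of -3.79 ± 0.87, and its NP spleen signal was well above background on 1 array. Slc10a2, known for bile acid uptake in ileum, had 8.12 and 7.18 in NP spleen against 8.83 and 9.37 in low-NP spleen, a ratio of -1.45 ± 0.74, and was likewise above background on 1 array there. A second Slc10a2 probe was at -0.51 and -1.80 and missed the call on array 1. Among the Slco genes not called, the prostaglandin carrier Slco2a1 and the widely made Slco2b1 differed between the diets by far less. Slco2a1 was at -0.08 and -0.04 in spleen and 0.24 and 0.11 in liver, and Slco2b1 at -0.41 and -0.44 in spleen and 0.34 and 0.18 in liver. Slco1a4, made by hepatocytes and brain endothelium, had -0.46 and -1.06 in spleen and 0.27 and 0.33 in liver. Slco3a1 (-0.12 and -0.79 in liver) and Slco4a1, a thyroid hormone carrier in human cells, (-0.07 and -0.63) lay below 0 on both liver arrays without a call. In spleen Slco3a1 was at -0.00065 and 0.08 and Slco4a1 at 0.05 and 0.04. In liver, Slco1b2 was at 0.49 and -0.34 and Slc10a1 at -0.01 and 0.38, with opposite signs on the arrays, while Slco1a1 was at 0.33 and 0.13. The family medians were -0.35 in spleen and 0.12 in liver over 8 Slco genes, and -1.45 over 3 and 0.08 over 4 Slc10a genes. Slc10a3 was measured in both tissues with ratios between -0.12 and 0.08, Slc10a6 only in liver, and Slc10a4, Slco1a6, Slco1c1, Slco4c1, Slco5a1, Slco6b1, Slco6c1 and Slco6d1 in neither.

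**Figure D2:**
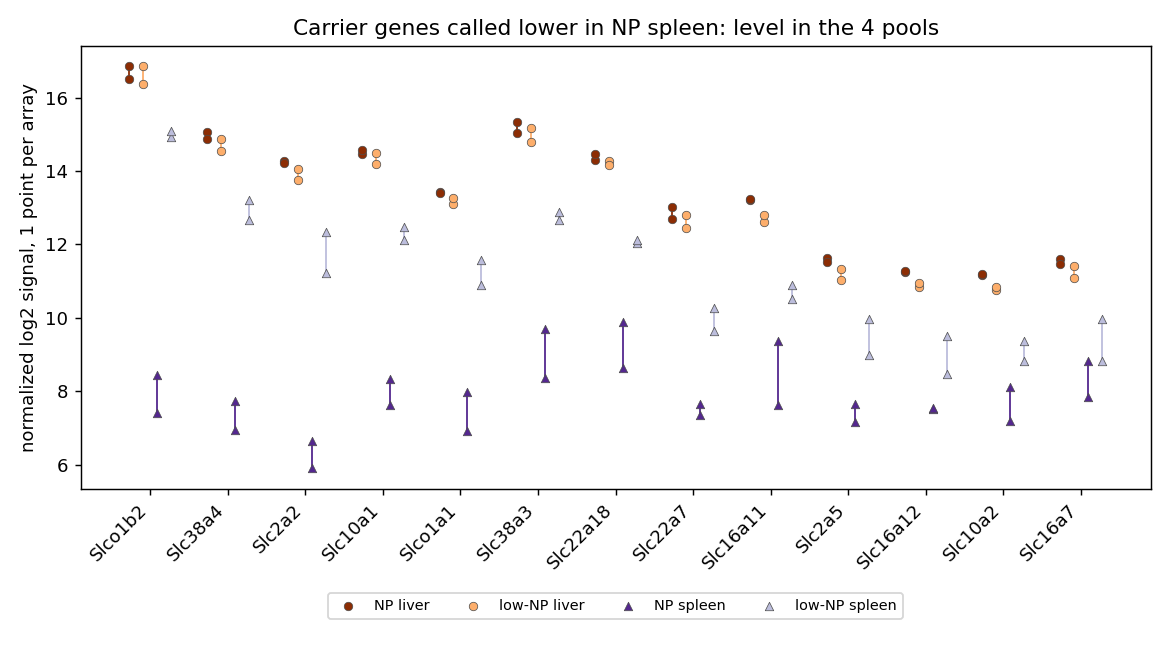
Normalized log2 signal of 13 of the 15 carrier genes lower in NP spleen, with 1 point for each array of the NP liver, low-NP liver, NP spleen and low-NP spleen pools. NP spleen is the lowest pool for all 13 genes, low-NP spleen lies between it and both liver pools, and for Slc16a7 1 array of low-NP spleen lies level with 1 array of NP spleen.

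Among the organic ion carriers of the Slc22a family 3 of 11 measured genes were lower in NP spleen. Slc22a7, the anion carrier Oat2, stood at 7.65 and 7.35 in NP spleen against 9.64 and 10.26 in low-NP spleen, a ratio of -2.45 ± 0.46, with liver values of -0.12 and 0.56. Slc22a18, an imprinted gene of the family, stood at 9.88 and 8.62 in NP spleen against 12.04 and 12.11 in low-NP spleen, a ratio of -2.82 ± 0.66. Its second, dimmer probe gave -0.28 and -0.88 and was not called, so the probes disagree on size. The carriers of carnitine and of related zwitterions did not share this pattern. Slc22a5, the carnitine carrier Octn2, was at -0.13 and -0.11 in spleen and 0.06 and -0.06 in liver. Slc22a4, the ergothioneine carrier Octn1, was above 0 on every array, at 0.30 and 0.26 in spleen and 0.23 and 0.27 in liver, short of the call. Slc22a12, the urate carrier of the kidney, was at -0.10 and 0.04 in spleen and 0.08 and -0.09 in liver. The highest mean in the family was that of Slc22a16 in spleen, at 0.31 ± 0.10. The family median was 0.02 in spleen and 0.03 in liver over 11 and 10 genes. Slc22a20 was measured only in spleen, and Slc22a2, Slc22a3, Slc22a6, Slc22a13, Slc22a14 and Slc22a19 in neither tissue.

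Of the hexose carriers, 2 of 10 measured Slc2a genes were lower in NP spleen, those for glucose in hepatocytes and for fructose. Slc2a2, or Glut2, which lets glucose in and out of hepatocytes, had levels of 14.26 and 14.22 in NP liver, 13.76 and 14.05 in low-NP liver, 5.89 and 6.65 in NP spleen and 11.23 and 12.33 in low-NP spleen. NP spleen was not well above background on either array, so the difference on this probe is a bound of at least 37.4-fold lower (measured ratio -5.51 ± 0.17; probe at chr3:28543803-28543862, mm7). A second Slc2a2 probe was also called lower in spleen, at -1.63 and -3.25, so the probes differ on size. Slc2a5, the fructose carrier Glut5, stood at 7.66 and 7.15 in NP spleen against 8.98 and 9.98 in low-NP spleen, a ratio of -2.07 ± 0.75, with NP spleen above background on 1 array. In liver, both lay above 0 on each array, Slc2a2 at 0.50 and 0.17 and Slc2a5 at 0.58 and 0.19. Glucose carriers known from leukocytes did not share this pattern. Slc2a3, the high-affinity Glut3 of leukocytes and neurons, had 8.60 and 8.07 in NP liver against 8.97 and 9.47 in low-NP liver, a ratio of -0.37 and -1.40 that reached 1.5-fold on array 2 only. Slc2a6, known from leukocytes, had 8.47 and 8.24 in NP liver against 8.63 and 8.98 in low-NP liver and a ratio of -0.16 and -0.74. In spleen these genes differed little, Slc2a3 at 0.21 and 0.15 and Slc2a6 at 0.04 and 0.25. Slc2a1, the basal carrier Glut1 of most dividing cells, changed sign between the arrays in liver, at 0.43 and -0.55, and in spleen, at 0.37 and -0.18. Slc2a4, the insulin-responsive Glut4 of muscle and fat, was above 0 on all 4 arrays, at 0.24 and 0.44 in liver and 0.29 and 0.45 in spleen, and had the highest mean of all carriers in spleen. Slc2a8, an intracellular hexose carrier, was at 0.17 and 0.27 in liver and -0.14 and -0.25 in spleen. Slc2a9, a urate carrier, was at 0.23 and 0.33 in liver and -0.14 and -0.59 in spleen, so both genes lay above 0 in liver and below it in spleen without a call. The family median was 0.22 over 9 genes in liver and 0.00 over 10 in spleen. Slc2a12 was measured in neither tissue and Slc2a10 only in spleen.

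The amino acid carriers fell apart by family, with 2 of 5 Slc38a genes and none of 13 measured Slc7a genes lower in NP spleen. Slc38a4, a sodium-coupled carrier of neutral amino acids in liver, had levels of 15.05 and 14.87 in NP liver, 14.54 and 14.88 in low-NP liver, 7.72 and 6.95 in NP spleen and 12.67 and 13.22 in low-NP spleen. It was 48.8-fold lower in NP spleen (-4.94 and -6.28), with its probe at chr15:96996450-96996509 (mm7). The NP spleen signal was dim, so this size is uncertain. Over the main run and the alternatives its ratio ran from -6.75 to -3.98. A second Slc38a4 probe was also called lower in spleen, at -1.93 and -2.75, so the probes differ on size. Slc38a3, the glutamine carrier Snat3 of hepatocytes, stood at 9.69 and 8.37 in NP spleen against 12.87 and 12.67 in low-NP spleen, a ratio of -3.18 and -4.30, or 13.4-fold lower. Their liver ratios differed between the arrays, 0.51 and -0.01 for Slc38a4 and -0.14 and 0.55 for Slc38a3. Slc38a1, the glutamine carrier Snat1 that lymphocytes use, showed the reverse arrangement, with levels of 9.11 and 8.69 in NP liver, 9.63 and 10.47 in low-NP liver, 12.22 and 12.09 in NP spleen and 12.15 and 12.10 in low-NP spleen. Its liver ratio of -0.52 and -1.78 missed the call on array 1. A second Slc38a1 probe passed it, at -0.72 and -2.12, and 3 further measured probes were also below 0 on both liver arrays without a call. Slc38a5, another glutamine carrier, was at -0.07 and -0.67 in liver and 0.21 and 0.26 in spleen. Slc38a2, which cells raise when amino acids are short, changed sign with the dye on its brightest probe, at -0.25 and 0.06 in liver and -0.13 and 0.14 in spleen. Its other probes in liver were at -0.25 and -0.23, at 0.59 and 0.03, and at -0.09 and -0.04. The Slc38a2 probes thus disagree on sign, and none was called.

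In the Slc7a family the cationic amino acid carrier Slc7a2 came nearest to a call in spleen. Slc7a2, which brings arginine into hepatocytes and macrophages, had levels of 11.10 and 10.98 in NP liver, 10.82 and 10.72 in low-NP liver, 8.81 and 7.71 in NP spleen and 9.34 and 9.21 in low-NP spleen, a spleen ratio of -1.01 ± 0.48. Its relative Slc7a1 was at 0.12 and 0.15 in spleen and 0.0018 and -0.0033 in liver. Slc7a7, the arginine and lysine exporter of macrophages and gut, had 11.55 and 11.49 in NP liver against 11.89 and 12.05 in low-NP liver, a ratio of -0.34 and -0.56, and 0.01 and 0.11 in spleen. This was the lowest mean of the family in liver, and array 2 fell just short of 1.5-fold. Slc7a5, the large neutral amino acid carrier of dividing cells, was at -0.08 and -0.30 in liver and -0.03 and 0.31 in spleen. Slc7a8, a related exchanger, was at 0.08 and -0.02 in liver and -0.32 and 0.23 in spleen. Slc7a11, the cystine carrier of the glutathione pathway, was at -0.09 and -0.68 in liver, where NP liver was not well above background, and 0.03 and -0.06 in spleen. Slc7a10, a carrier of small neutral amino acids, was measured only in spleen, at 0.03 and 0.14. The family median was 0.00 over 12 liver genes and 0.03 over 13 spleen genes, and Slc7a12, Slc7a13 and Slc7a14 were measured in neither tissue.

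The monocarboxylate carriers gave 4 of 12 measured genes lower in NP spleen, while by share Slc10a (2 of 3) and Slc38a (2 of 5) had more. Slc16a11, a carrier linked to pyruvate in human cells, stood at 9.38 and 7.64 in NP spleen against 10.52 and 10.90 in low-NP spleen, and its ratio of -2.20 ± 1.06 had the widest gap between arrays among the 15. Slc16a12, a creatine carrier, stood at 7.51 and 7.54 in NP spleen against 8.48 and 9.49 in low-NP spleen, a ratio of -1.46 ± 0.49. Slc16a7, the lactate and pyruvate carrier Mct2, stood at 7.84 and 8.81 in NP spleen against 8.82 and 9.97 in low-NP spleen, a ratio of -0.98 and -1.16, although array 2 of NP spleen and array 1 of low-NP spleen were level. These 3 lay above 0 on both liver arrays, and Slc16a11 had the highest liver mean of all carriers. Slc16a11 was at 0.60 and 0.42 there, Slc16a12 at 0.40 and 0.32, and Slc16a7 at 0.51 and 0.07. Slc16a3, the lactate exporter Mct4 of glycolytic cells, went the other way, with 8.79 and 8.51 in NP liver against 9.03 and 9.58 in low-NP liver, a ratio of -0.23 and -1.07, and 0.13 and 0.21 in spleen. Slc16a1, the general lactate carrier Mct1, was at 0.24 and 0.19 in liver and 0.03 and 0.23 in spleen, above 0 on all 4 arrays with loess, and at -0.14 in spleen with median centring. Slc16a10, a carrier of aromatic amino acids and thyroid hormone, was at 0.24 and 0.29 in liver and -0.39 and -0.22 in spleen. The family median was -0.05 in spleen and 0.12 in liver over 12 genes each, and Slc16a4 and Slc16a14 were measured in neither tissue.

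The levels in the NP pools were then compared between the tissues, since the families hold carriers of both. A gene was called higher in a tissue when its level differed at least 2-fold, with neither array overlapping. Of 62 carriers 22 (35.5%) were higher in NP liver and 10 (16.1%) in NP spleen, against 16.4% and 17.5% of 18405 genes, so the spleen share was near that of all genes. With the scanner software's processed signals the counts were 23 and 21, and all genes were not counted there, so no share stands beside them. The liver side was led by Slco1b2 (435-fold), Slc2a2 (at least 206-fold) and Slc38a4 (197-fold), and held all 15 genes lower in NP spleen, down to Slc16a7 at 9.24-fold. It also held 7 genes that were not called for diet, Slc7a2 at 6.88-fold, Slco1a4 at 4.7-fold, Slc2a9 at 3.61-fold, Slc16a10 at 3.32-fold, Slc2a8 at 2.88-fold, Slco2b1 at 2.22-fold and Slc22a5 at 2.14-fold. The spleen side was led by both glutamine carriers, Slc38a1 at 9.56-fold and Slc38a5 at 8.39-fold, and by Slc2a3 at 7.05-fold. It went on with Slc16a3 at 4.22-fold, Slc7a7 at 3.89-fold, Slco3a1 at 3.52-fold, Slc2a6 at 3.12-fold, Slc16a6 at 2.97-fold, Slc16a9 at 2.76-fold and Slc2a1 at 2.21-fold. By family, Slc16a split 5 to liver and 3 to spleen, Slc2a 4 and 3, Slco 4 and 1, Slc22a 4 and none, Slc38a 2 and 2, Slc10a 2 and none, and Slc7a 1 and 1. In this order the step between the neighbours Slc38a3 at 71.4-fold and Slco1a1 at 61.95-fold was smaller than the gap between their arrays in NP spleen. The largest folds on the liver side divide by a dim NP spleen signal, so their sizes are uncertain.

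**Figure D3:**
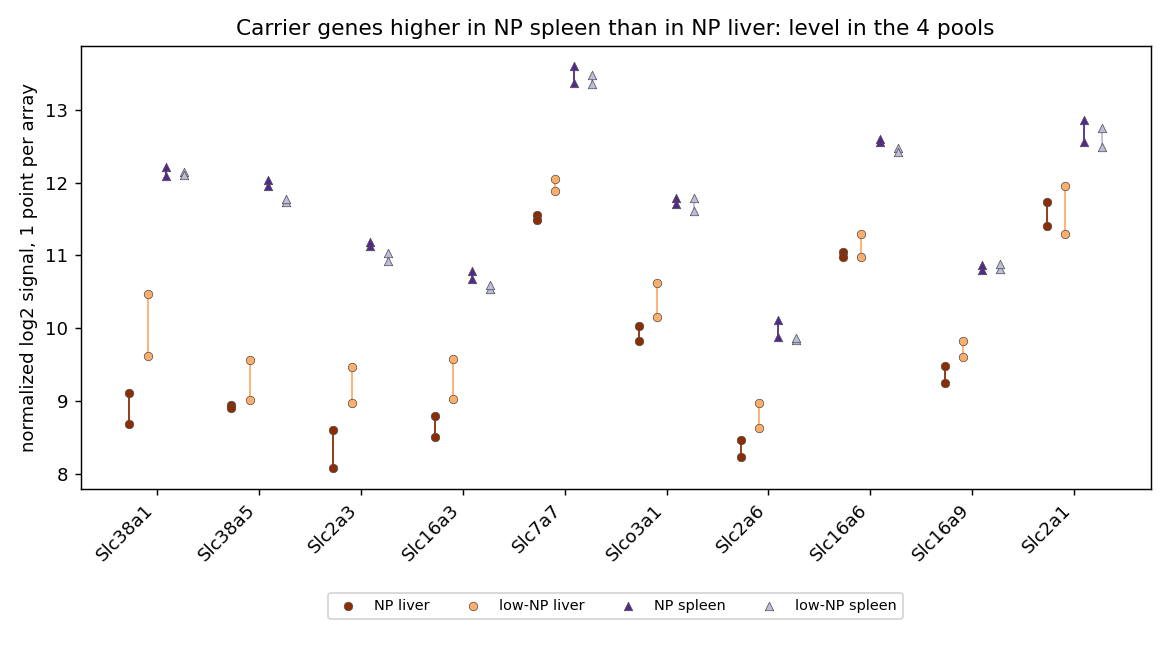
Normalized log2 signal of the 10 carrier genes higher in NP spleen than in NP liver, with 1 point for each array of the 4 pools. The spleen pools of both diets lie within 0.24 of each other on the mean of their arrays, and low-NP liver lies above NP liver on the mean of its arrays for each gene.

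In the low-NP pools the same comparison gave smaller differences between the tissues. Of 61 carriers 20 were higher in low-NP liver and 9 in low-NP spleen, against 11% and 12.2% of 18518 genes. Slc22a5 and Slco2b1 were no longer called for liver, and Slc2a1 no longer for spleen. Slco1b2 was 3.04-fold higher in low-NP liver than in low-NP spleen, against 435-fold in the NP pools. For Slc38a4 the values were 3.39-fold and 197-fold, and for Slc10a1 4.09-fold and 93.2-fold. On the spleen side the folds moved less. Slc38a1 was 4.23-fold higher in low-NP spleen, against 9.56-fold, and Slc38a5 5.52-fold against 8.39-fold.

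**Figure D4:**
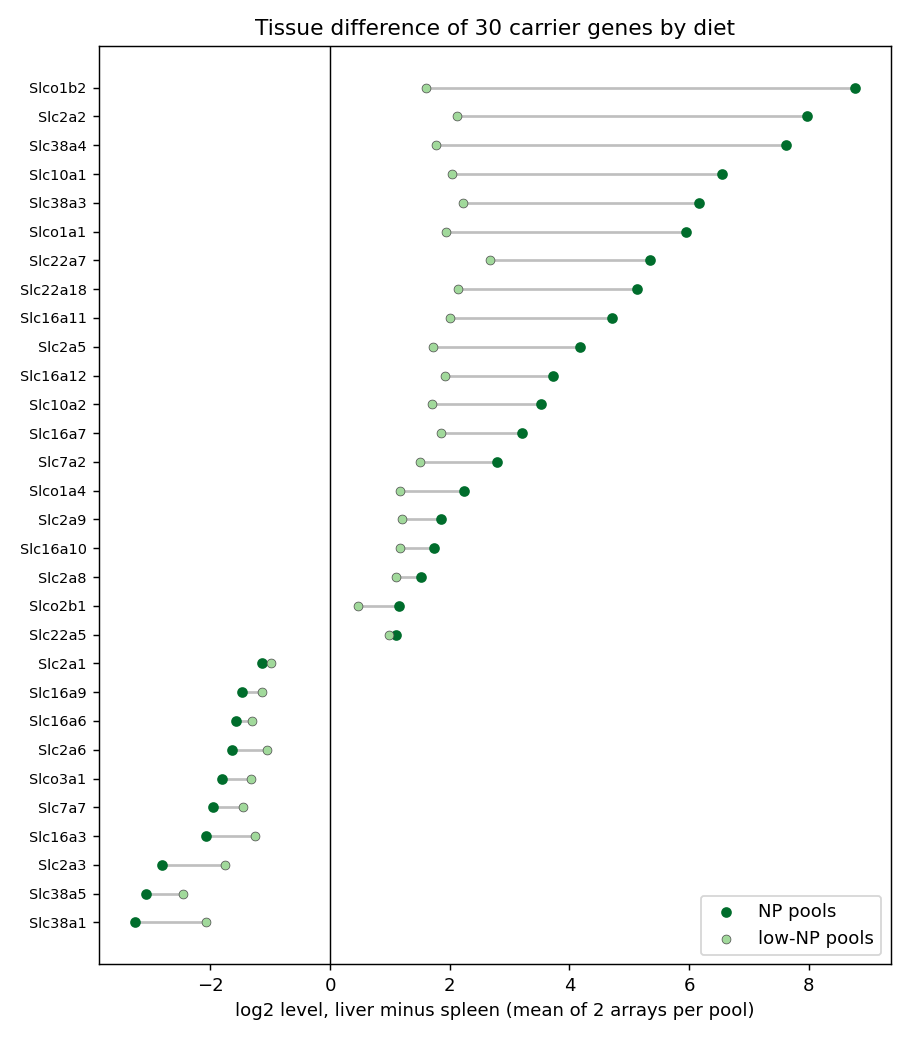
Log2 level in liver minus spleen for 30 carrier genes that differed between the NP pools, with 1 point for the NP pools and 1 for the low-NP pools (mean of 2 arrays per pool). For Slco1b2 the difference is 8.76 in the NP pools and 1.61 in the low-NP pools, and for every gene shown the low-NP point lies nearer to 0.

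Tissue and diet were set side by side, gene by gene. These comparisons share the NP channels, so the counts below describe the data and are no independent support. All 22 carriers higher in NP liver had spleen ratios below 0 on both arrays, with a median of -2.01, and 15 of them (68.2%) were called lower. Their means stayed below 0 in every alternative run. Over all genes higher in NP liver, 2828 of 2998 lay below 0 on both spleen arrays. Of the 2998, 36.9% were called lower in spleen and the median was -0.50. In liver, 15 of these 22 carriers were above 0 on both arrays and none was called, with a median of 0.26 against 0.16 over all such genes. Of all 3027 genes higher in NP liver, 1985 were above 0 on both liver arrays. Of the 10 carriers higher in NP spleen 8 had liver ratios below 0 on both arrays, none was called, and the median was -0.45. Over all genes higher in NP spleen, 2719 of 3120 lay below 0 on both liver arrays. Of the 3120, 19.5% were called lower in liver and the median was -0.44. The 30 carriers higher in neither tissue held no call for diet, with medians of 0.01 in liver and 0.04 in spleen and means between -0.38 and 0.37.

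The size of the pattern was described by where a low-NP level lies between the NP pools of both tissues, as a percentage of the way on the linear scale. For the 12 carriers at least 16-fold higher in NP liver, the low-NP spleen level lay between 11.5% and 31.1% of the way from NP spleen to NP liver, with a median of 18.9%. The medians were 15.7% on array 1 and 22.7% on array 2. For the 10 unsaturated hepatocyte markers the range was 16.3% to 231%, with a median of 38.4%. The macrophage marker Clec4f lay at 20.15% in low-NP spleen. In low-NP liver, the 4 carriers at least 4-fold higher in NP spleen lay between 4.26% (Slc38a5) and 18.1% (Slc16a3) of the way from NP liver to NP spleen, with 15.1% for Slc38a1 and 13.95% for Slc2a3. There, 7 B cell markers lay at 13.2% to 18.8% and 6 T cell markers at 15.7% to 19.6%. Markers of other cells reached lower, with 4 macrophage markers at 3.99% to 14.1% (with Adgre1 at -6.86% on array 1) and 3 erythroid markers at 0.671% to 7.13%. The adipocyte marker Cfd was at 3.61%. On array 1 the 4 carriers were at 0.671% to 6.20% and on array 2 at 7.86% to 29.9%, so the arrays did not overlap.

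**Figure D5:**
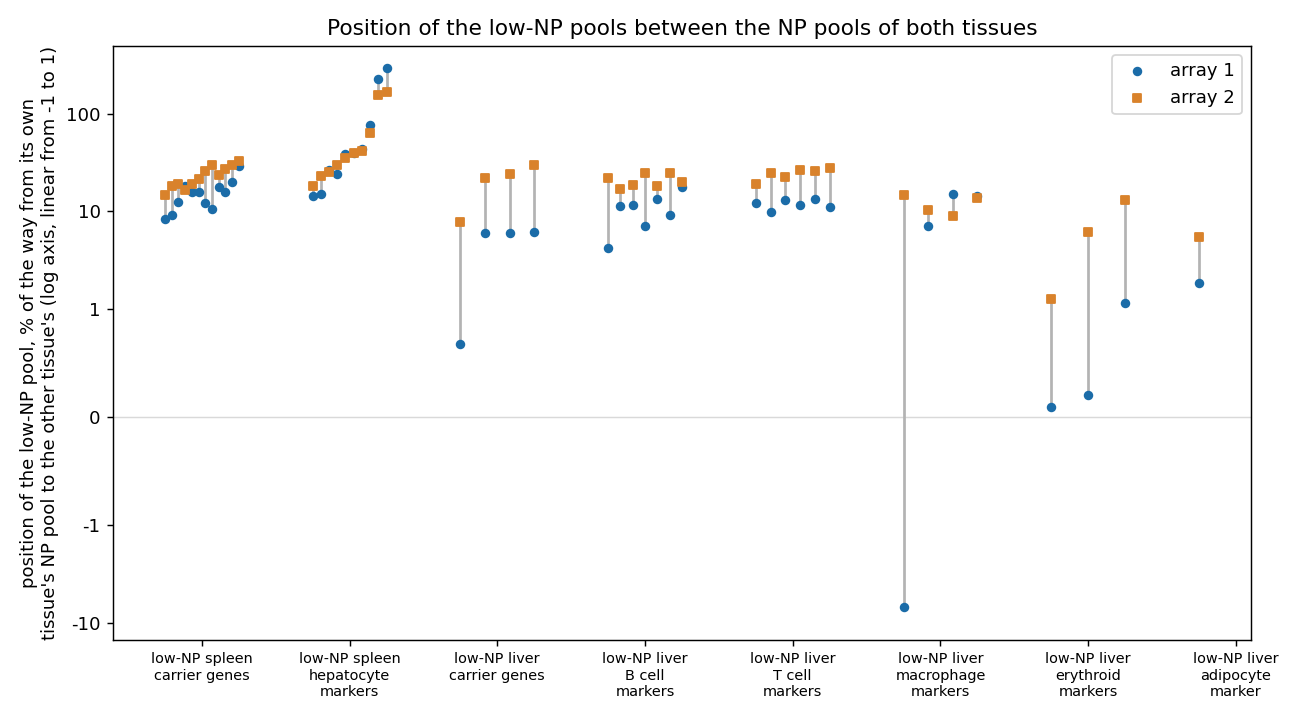
Position of the low-NP pools between the NP pools of both tissues, in percent of the way from the tissue's own NP pool to the other tissue's on a log axis that is linear from -1 to 1, for carrier genes and cell type markers, with 1 point per array. Carriers in low-NP spleen have means of 11.5% to 31.1%, B and T cell markers in low-NP liver of 13.2% to 19.6%, macrophage markers of 3.99% to 14.1%, erythroid markers of 0.671% to 7.13% and the adipocyte marker of 3.61%.

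Genes that work with these carriers were counted from lists chosen with earlier results of these data known. Over all measured genes 6.34% were called lower in spleen and 3.65% in liver. Of 4 partner proteins, Slc3a1, the heavy chain of the cystine and dibasic amino acid carrier, was lower in NP spleen (-1.80 and -2.89) and lay above 0 in liver (0.41 and 0.64) without a call. Slc3a2, the heavy chain for Slc7a5, Slc7a7 and Slc7a11, was at -0.46 and -0.31 in liver and -0.05 and 0.13 in spleen, and Emb, a chaperone of Slc16a carriers, at -0.58 and -1.97 in liver. Of 13 genes of glucose handling 8 were lower in NP spleen and none was called in liver. They included the gluconeogenic enzyme Fbp1 (-6.87 ± 0.44) and the glucose 6-phosphate carrier Slc37a4 (-1.43 ± 0.0022). Of 14 genes of amino acid use 11 were lower in NP spleen, among them the urea cycle enzymes Cps1 (-7.09 ± 0.64) and Otc (-6.01 ± 0.39), and none was called in liver. Gls2, the liver's glutaminase, was among them at -4.21 ± 0.48.

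Of the genes of organic ion and bile acid handling, 10 of 15 measured were lower in NP spleen, against 6.34% of all measured genes. They included the bile salt export pump Abcb11 (-5.50 ± 0.44), the cation exporter Slc47a1 (-4.61 ± 0.04) and the hepatic transcription factor Hnf4a (-2.82 ± 0.79). In liver, 1 of 16 was called higher, against 0.0706% of all measured genes. This was Cyp7a1, whose enzyme sets the pace of bile acid synthesis, at 0.74 and 0.76. In spleen Cyp7a1 was lower, at -3.21 ± 0.82. Of 8 genes of monocarboxylate and thyroid hormone use 4 were lower in NP spleen, with Dio1, which activates thyroid hormone, at -3.92 ± 0.85, and none was called in liver. Among 70 genes of other plasma membrane carrier families, 5 of 42 measured were lower in NP spleen and 1 of 40 in liver. Of all measured genes 6.34% and 3.65% were lower there, so the liver share was no higher than that of all genes. The spleen genes were the hepatic fatty acid carriers Slc27a2 (-6.10 ± 0.81) and Slc27a5 (-4.51 ± 0.46), the betaine and GABA carriers Slc6a12 (-2.52 ± 0.42) and Slc6a13 (-2.75 ± 0.33), and the glutamate carrier Slc1a2 (-1.36 ± 0.44). The liver gene was Slc1a5, a glutamine carrier of dividing cells, at -1.20 and -2.03.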

How the data were processed

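The authors' scanner files were written by Agilent Feature Extraction (version 9.5.3.1, from the submitters' processing notes). They give each spot's intensity in both dyes, mean foreground beside median background, per the file headers, and the log10 ratio of red over green that the software formed. The deposited value table holds log10 ratios of low NP over NP: its columns correlated with the scanner's log10 ratio of NP over low NP at -0.992, -0.990, -0.989 and -0.998. Its scale is the scanner's, its column medians of 0.03, -0.07, -0.01 and -0.04 show no centring on 0, and why 2.69% to 22.6% of its features differ beyond rounding stays unknown. It served as an alternative, and no column of values was left unmapped (0).

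An array has 45018 spots with 1639 controls, and 109 to 180 outlier spots were left out. With limma 3.58.1 (R 4.3.3), normexp with an offset of 50 corrected the background. Log ratios were normalized within arrays by loess, channel levels by Aquantile after it, and repeated spots of a probe were averaged. Of 41174 probes 22951 were named by accession, 6659 by symbol and 3109 by synonym through RefSeq names, and 8455 kept the name in the file. Positions of probes are in mm7, from the scanner files. A bound divides the bright pool's level by the lowest signal well above background, or by the dim probe's own if that is higher, within each channel. It is open to dye bias, which the swap balances. All 4 arrays share 1 slide. The number of arrays limits the precision. The rule for calls was also run on simulated dye swaps with known changes, which checks the computation and not the diet differences. The simulation held no signal floor and no transcripts of another tissue. Tables were made with Python 3.11.15, numpy 2.4.6 and pandas 2.3.3, and figures with matplotlib 3.10.9.

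The members, lists and alternatives were chosen with earlier results of these data known. Named with the value on each array are called members, members with a bound and a list of textbook members; the rest are given by family. Slc10a5 and Slc38a9 of that list, and 2 probes whose file names are not carrier names, were not analysed here. A few genes, among them 2 of the 15 carriers lower in NP spleen, are counted but not reported here by name. Proteins of the members were not used here.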

Additional observations from a re-analysis of the deposited data

Results flagged for a closer look

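For 8 carrier genes both spleen arrays showed a lower level with NP, past 1.5-fold, while both liver arrays showed a higher one, and the difference between the tissues was not tested. The liver ratios were all short of 1.5-fold on the mean of the arrays. Slc2a2, the glucose carrier of hepatocytes, was at least 37.4-fold lower in spleen on its brightest probe, where NP spleen was not well above background. The measured log2 ratio of that probe was -5.51 in spleen and 0.34 in liver, and a second probe had a mean of -2.44 in spleen. The fructose carrier Slc2a5 was at -2.07 in spleen and 0.39 in liver. The organic anion carrier Slco1a1 was at -3.79 in spleen and 0.23 in liver, and the bile acid carrier Slc10a2 at -1.45 and 0.38. Slc22a18 was at -2.82 and 0.17. Of the monocarboxylate carriers, Slc16a11 was at -2.20 in spleen and 0.51 in liver, Slc16a12 at -1.46 and 0.36, and Slc16a7 at -1.07 and 0.29. Hepatocyte markers were lower in NP spleen over the same arrays, with a median of -5.29, and had a median of 0.06 in liver. Their part in these ratios was not tested.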

How the results depend on the processing

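No paired analysis was possible because each diet and tissue has 1 pool and no test was run. The 15 spleen calls held their direction in every alternative that measured them, and the count of carriers lower in spleen ran from 11 to 16 over probe filters, probe means, scalings and a 2-fold threshold. It was 0 once genes higher in NP liver than in low-NP spleen were removed, which takes out all 15 and leaves 42 carriers, with 129 of 16068 genes then lower. Leaving out an array gave 15 to 18 lower carriers in spleen, 0 to 8 in liver and 0 to 1 higher in liver, and spleen medians of -0.087 to -0.027. Of all genes 6.73% to 9.08% were then lower in spleen, and 4.12% to 11.2% lower and 0.447% to 2.02% higher in liver. Carriers lower in liver were 5 without background correction, and 7 with processed signals and with the deposited table. All genes lower rose there to 1327, 1795 and 1749 (7.8%, 10.6% and 10.3%). Those settings gave 0, 1 and 4 carriers higher in liver, against 0.106%, 0.723% and 1.83% of all genes. The liver median of 0.035 became 0.096 with median centring, 0.107 with processed signals, 0.073 with both channels well above background, 0.191 with the deposited table and 0.101 without genes of the other tissue. The spleen median became -0.179 with median centring, where all measured spleen genes had -0.148, and 0.0997 with the deposited table and 0.0499 without genes of the other tissue. Processed signals gave 21 carriers higher in NP spleen and a 4-fold threshold 4, without a count of all genes beside them. Of the other values, 82 family medians and 872 member ratios moved by at most the standard deviation of the 2 arrays. The other 58 and 211 moved by more, and no called value changed sign. Leaving out an array cannot move a member ratio past that limit, so those settings count toward the 872 by construction. Signal over background limits the set: 53 carriers in liver and 54 in spleen were well above it in both channels on both arrays, and 11 of the 54 were lower. The causes were not tested.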
